A study of Mus musculus with 8 samples.

Results

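Elastic fibre and microfibril genes are 10 genes of the extracellular matrix, Eln, Fbn1, Fbn2, Mfap4, Mfap5, Fbln1, Fbln2, Fbln5, Efemp1 and Efemp2, and they were followed here in 8 mouse mammary tumours. They were found on the array as the non-control probes whose RefSeq accession belongs to one of these genes, which gave 13 of 55681 distinct probes and 10 of the 21368 genes that could be named. Red signal was well above background on all 8 arrays at 12 of these probes, which cover all 10 genes, and at none of the 8 arrays for the other, a second Fbln5 probe that was not tested. RNA of 4 tumours labelled FGFR1 KO (K19-tva with both Fgfr1 alleles floxed, the floxed allele bred from an ICR background into FVB) was compared with RNA of 4 tumours of control K19-tva mice labelled WT. Both groups are on the FVB strain and both carry K19-tva, the receptor for an avian retrovirus placed behind the Krt19 promoter. The labels give no other difference than the floxed Fgfr1 gene and the ICR background it was bred from. The effects of the floxed gene and of any remaining ICR background cannot be told apart. The labels give neither the oncogene, the Cre, the ages nor the cells in which Fgfr1 was deleted, nor whether each tumour is from its own mouse. The p-values thus speak only of the scatter among these tumours, which may be technical. Each tumour was hybridised once, on a 2-colour Agilent array, against a common human reference RNA.

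Elastic fibres give tissues recoil. They have a core of cross-linked elastin, encoded by Eln, laid down on a scaffold of microfibrils that are built mainly from fibrillins, and fibulins and microfibril-associated proteins join the parts and help the core to be cross-linked. Microfibrils also hold latent TGF-beta in the matrix, and in connective tissue the fibres are made chiefly by fibroblasts and smooth muscle cells.

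Values are log2 of tumour (red) over reference (green) signal after background correction and loess normalization, and a difference is FGFR1 KO minus WT on that scale. The label field names cy3 only, while the labelling protocol puts the tumour RNA in red. The measured spread ran the same way, with a median SD within groups of 0.307 (FGFR1 KO) and 0.389 (WT) in red and of 0.162 and 0.182 in green over 22367 spots. The share of spots with red well above background was 68.9% to 83.9% on FGFR1 KO arrays, against 43.9% to 69.2% on WT arrays. All FGFR1 KO arrays lay in one row of the slide and all WT arrays in the other, and the effects of slide row and of genotype cannot be told apart. WT 2 stood apart from the other arrays, with a mean correlation of 0.379 to them across probes, against 0.598 to 0.713 for the other 7 arrays. Negative controls gave raised red signal on WT arrays within a rectangle of 19680 spots: the 90th percentile of their red signal above background was 7.0 to 13.8 intensity units there on FGFR1 KO arrays and 174 to 236 on WT arrays. The median control there was 35.5 on WT 1 and 41 on WT 3, against 2.25 and 3.5 outside the rectangle. On WT 2 and WT 4 it was 6.25 and 6, against 6.75 and 3 outside. The spots of Fbln1 (both probes), Fbln2, Mfap4 and Mfap5 lie in that rectangle, and those of the other members lie outside it. The targeted gene, Fgfr1, differed by 0.00 ± 0.12, -0.49 ± 0.66 and -0.10 ± 0.41 (SE) at its 3 probes. Their place relative to the floxed part is not known here, and they give no check of the labels.

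In FGFR1 KO tumours, 3 of the 10 genes were lower on every array than on any WT array: Efemp1, Mfap5 and Fbln1. The background share of such genes was 2.5% of the 16781 genes tested, 5.35% of those with a spot in the rectangle and 1.05% of those outside it. None of the 10 was higher on every FGFR1 KO array, against 1.85% of all genes tested. In all, 8 of the 10 members had a difference below 0, Mfap4 by less than 0.01, with a median of -0.58, against 50.4% of all genes tested and a median of -0.00. No member passed limma's test over all 39818 probes (smallest adjusted p = 0.318, at the second Fbln1 probe), where 4 probes in all were called (0.01%), and 100% of these 4 lay inside the rectangle. Of the 39818 probes tested, 26753 had no spot there. At an unadjusted p under 0.05, limma counted 4 of the 10 members as lower and 0 as higher, against 4.78% and 3.1% of all genes tested and 4.85% and 3.63% of all probes. Inside the rectangle, 578 of 5682 genes were lower at this unadjusted p and 110 higher, and 3592 had a difference below 0. Outside it, these counts were 224, 410 and 4859 of 11099 genes. The members and the gene lists below were chosen with earlier results of these data known, so counts beside background shares are descriptive only. With 4 arrays a group, the number of arrays limits the precision.

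Efemp1 had the largest mean difference of the 10 genes. It encodes an EGF-containing fibulin that binds other matrix proteins and is made by fibroblasts among other cells. Its probe, A_55_P2048767, read -4.55, -2.63, -2.95 and -4.40 on FGFR1 KO 1 to 4, against -0.90, -1.61, -2.56 and -0.82 on WT 1 to 4. All 4 FGFR1 KO arrays lay below all WT arrays, with FGFR1 KO 2 and WT 3 almost level. The mean was -3.63 ± 0.98 in FGFR1 KO tumours and -1.47 ± 0.81 in WT tumours (SD, n = 4 each). The difference of -2.16 ± 0.54 (SE) has a 95% confidence interval from -3.38 to -0.95 and corresponds to a level 4.47 times lower in FGFR1 KO tumours. It did not pass over all probes (limma, adjusted p = 0.348), and its exact permutation p was 0.0286 (two-sided, n = 4 each), the smallest that 4 against 4 arrays can give. The red signal above background was 57, 96, 167 and 67 intensity units on FGFR1 KO arrays and 885, 398, 333 and 639 on WT arrays. The green signal of the reference was 3324.5 to 4159.5 on FGFR1 KO arrays and 2603 to 3383 on WT arrays, so the separation lies mostly in the red channel. The spot lies outside the rectangle, and the 5 nearest negative-control spots had a median red signal of 2.5 to 8 on FGFR1 KO arrays and of -1.5 to 8.5 on WT arrays.

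**Figure D1:**
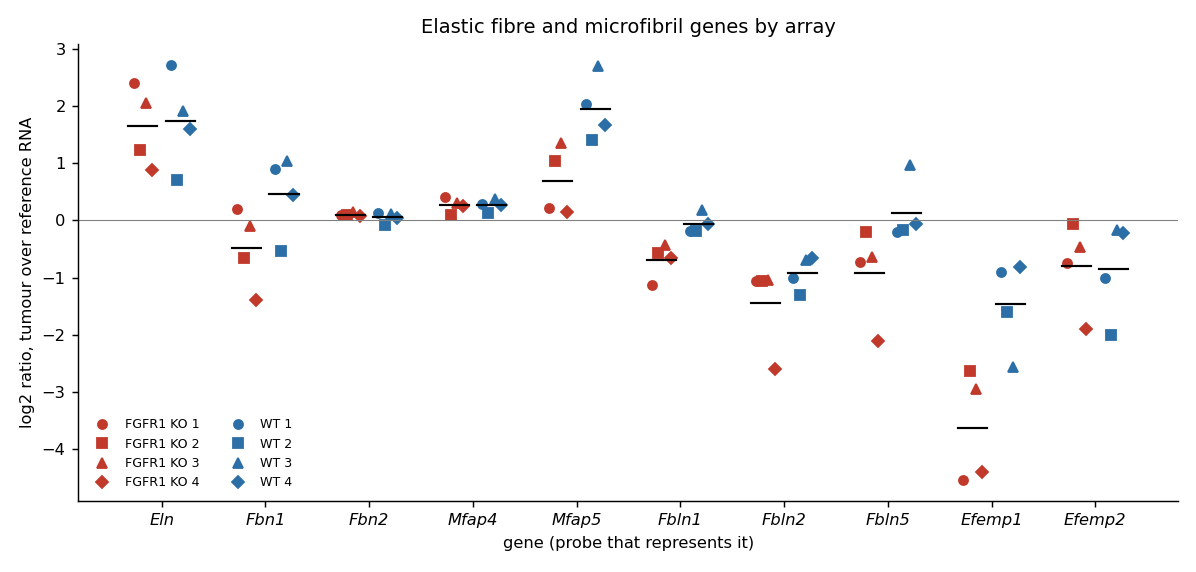
Log2 ratio of tumour over reference RNA (vertical axis) for the probe that represents each of the 10 genes (horizontal axis), with 1 point per array, FGFR1 KO in red left of WT in blue, and a black line at each group mean (n = 4). Efemp1, Mfap5 and Fbln1 do not overlap between the groups, and Fbn2 and Mfap4 stay within a range of 0.22 and 0.30 over all 8 arrays.

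Mfap5 encodes a small microfibril-associated glycoprotein that is carried on fibrillin microfibrils. Its probe, A_55_P2062777, read 0.21, 1.04, 1.35 and 0.15 on FGFR1 KO 1 to 4, against 2.05, 1.42, 2.70 and 1.67 on WT 1 to 4. The groups did not overlap, with FGFR1 KO 3 and WT 2 the closest arrays. The difference was -1.27 ± 0.36 (SE, 95% interval from -2.08 to -0.46), 2.41 times lower in FGFR1 KO tumours (limma, adjusted p = 0.42 over all probes). Its spot lies in the rectangle. There the red signal was 741.5 to 1614 on FGFR1 KO arrays and 1303 to 5108 on WT arrays, and the 5 nearest negative controls had medians of -2 to 6 and of 8 to 289.5. The part of that local brightness in the difference was not tested.

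Fbln1, which encodes a fibulin of basement membranes and elastic tissue, was measured by a pair of probes, both inside the rectangle, and both separated the groups. The brighter one, A_52_P588483, read -1.13, -0.58, -0.42 and -0.66 on FGFR1 KO 1 to 4, against -0.19, -0.18, 0.19 and -0.07 on WT 1 to 4. The other, A_55_P2088601, read -0.92, -0.97, -0.58 and -1.76, against 0.77, -0.34, 0.69 and 0.06. On both probes every FGFR1 KO array was below every WT array, but the sizes differed: -0.64 ± 0.18 and -1.35 ± 0.32 (SE; limma, adjusted p = 0.44 and 0.318 over all probes). The 5 nearest negative controls of the first probe had medians of 2 to 7 on FGFR1 KO arrays and of 4 to 18 on WT arrays, beside a red signal of the spot of 142 to 377 and of 296 to 753. For the second probe, the controls read 0.5 to 8.5 and 4 to 64.5, beside a signal of 33 to 152.5 and of 134 to 572.5.

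**Figure D2:**
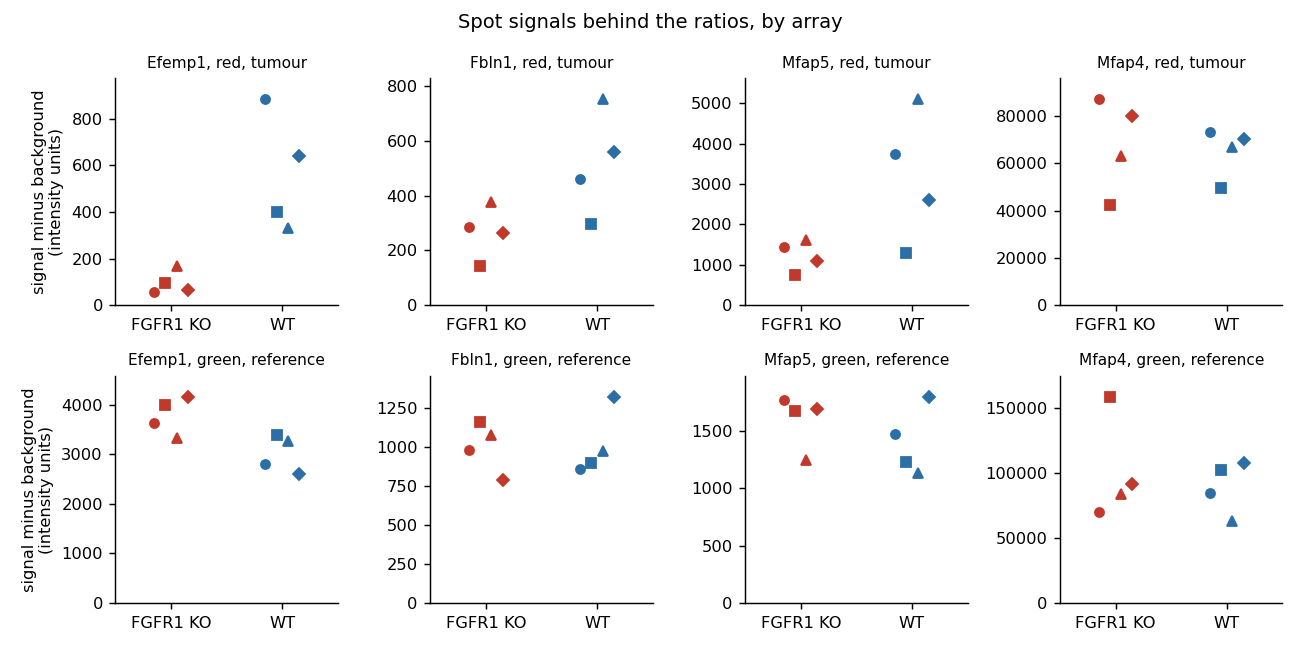
Red (tumour, top row) and green (reference, bottom row) median spot signal minus median background, in intensity units on linear axes that start at 0, for Efemp1, Fbln1 (A_52_P588483), Mfap5 and Mfap4, with 1 point per array (circle, square, triangle and diamond for replicates 1 to 4) and FGFR1 KO left of WT. For Efemp1, the red signal was 57 to 167 on FGFR1 KO arrays and 333 to 885 on WT arrays, while Mfap4 was at 42256.5 or above in red on all arrays.

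Fbln5 and Fbn1 were lower on average in FGFR1 KO tumours, by less than Mfap5, with overlapping groups. Fbln5 encodes the fibulin that links elastin to microfibrils and to integrins on the cell surface, and mice that lack it have disordered elastic fibres. Its tested probe, A_55_P2088615, read -0.72, -0.20, -0.64 and -2.11 on FGFR1 KO 1 to 4, against -0.20, -0.16, 0.98 and -0.07 on WT 1 to 4. FGFR1 KO 4 was far below the others, WT 3 far above, and FGFR1 KO 2 lay within the range of WT. The difference was -1.05 ± 0.43 (SE; limma, adjusted p = 0.558 over all probes), and -0.66 without FGFR1 KO 4. Fbn1 encodes fibrillin 1, the main protein of microfibrils and the gene mutated in Marfan syndrome. Its probe, A_51_P467224, read 0.21, -0.66, -0.10 and -1.39 on FGFR1 KO 1 to 4, against 0.89, -0.53, 1.04 and 0.44 on WT 1 to 4. WT 2 fell among the FGFR1 KO arrays, and the other WT arrays were above all of them. The difference was -0.95 ± 0.43 (SE; limma, adjusted p = 0.597 over all probes).

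Fbln2, which encodes a fibulin of vessel walls and basement membranes, read -1.06, -1.07, -1.05 and -2.60 on FGFR1 KO 1 to 4, against -1.01, -1.31, -0.70 and -0.66 on WT 1 to 4. Its difference of -0.53 ± 0.36 (SE; limma, adjusted p = 0.704) rested on FGFR1 KO 4: without that array it was -0.14. The spot lies in the rectangle. Its red signal was 1501 to 5844 on FGFR1 KO arrays and 1850.5 to 6112 on WT arrays, beside medians of the 5 nearest negative controls of -2 to 2.5 and of 88.5 to 237.5, and the part of that local brightness was not tested.

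Eln and Efemp2 did not separate the groups, and both varied widely within them. Eln, the gene of the elastic core, averaged 1.65 ± 0.70 in FGFR1 KO and 1.74 ± 0.84 in WT tumours (SD, n = 4 each). It read 2.40, 1.24, 2.06 and 0.89 on FGFR1 KO 1 to 4, against 2.73, 0.70, 1.91 and 1.60 on WT 1 to 4, and the groups interleave. The difference of -0.09 ± 0.46 (SE) has a 95% interval from -1.14 to 0.97, so that a difference either way within these bounds is not excluded. Efemp2 encodes the fibulin that brings lysyl oxidase to elastin and is needed for elastic fibres to form in mice. It averaged -0.79 ± 0.79 in FGFR1 KO and -0.85 ± 0.86 in WT tumours (SD, n = 4 each), with FGFR1 KO 4 at -1.90 and WT 2 at -2.01 as the lowest arrays. The difference was 0.06 ± 0.50 (SE, 95% interval from -1.06 to 1.18). The sign of both differences turned with 1 array left out.

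Fbn2 and Mfap4 barely varied at their representing probes. Fbn2 encodes the second fibrillin, best known from development. Its probe A_55_P2121096 read 0.08 to 0.14 on FGFR1 KO arrays and -0.08 to 0.14 on WT arrays, a difference of 0.05 ± 0.12 (SE). Its second probe, A_51_P103850, which is dimmer, ran over a wider range, 0.02 to 1.04 on FGFR1 KO arrays and -0.31 to 0.85 on WT arrays, with a difference of 0.10 ± 0.29 (SE). Mfap4 encodes a fibrinogen-related protein that binds elastin and fibrillin. Its probe, A_55_P2005470, read 0.40, 0.10, 0.30 and 0.26 on FGFR1 KO 1 to 4, against 0.28, 0.12, 0.38 and 0.28 on WT 1 to 4. The difference was 0.00 ± 0.13 (SE, 95% interval from -0.30 to 0.30). This probe was extremely bright in both channels, with 0.246% of tested probes brighter in red and 0.131% in green, and 2.45% of tested probes had a smaller range over the 8 arrays. The Fbn2 probe A_55_P2121096 also belonged to the brighter ones (7.15% brighter in red, 7.84% in green), and 0.691% of tested probes had a smaller range. The median range was 0.94. A representing Fgfr1 probe, A_55_P1967015, had the same profile, with 0.311% of probes brighter in red and a range of 0.26. Whether ratios at these spots follow the tumour's transcript level was not tested.

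**Figure D3:**
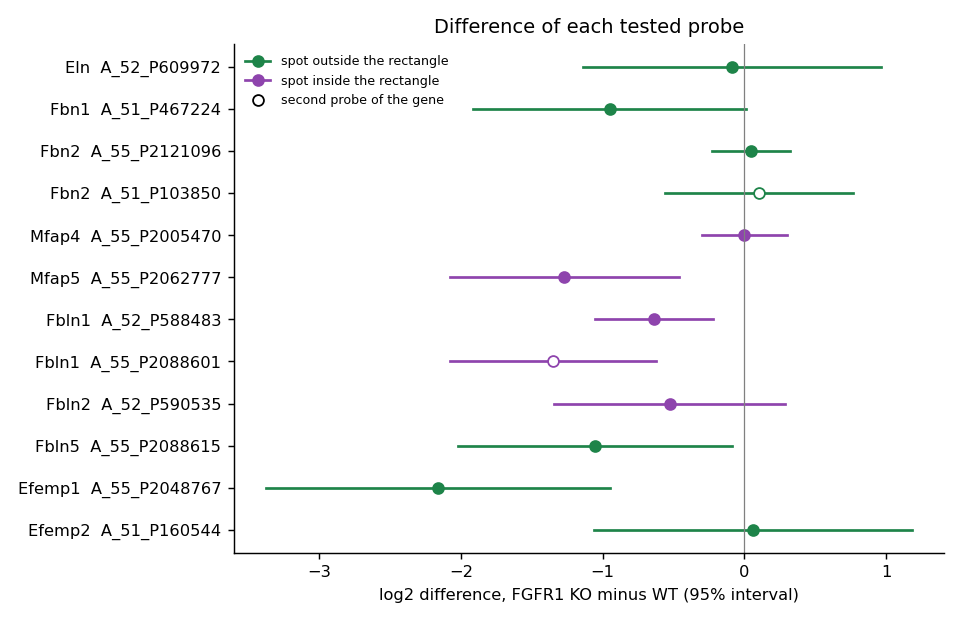
Log2 difference, FGFR1 KO minus WT (horizontal axis), with its 95% confidence interval from limma for each of the 12 tested probes (rows), green for spots outside the bright rectangle and purple for spots inside it, and open points for second probes. The intervals of Efemp1, Fbln5, Mfap5 and both Fbln1 probes lie below 0, and none of these probes passed after adjustment over all probes.

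The members differed in which array was lowest. FGFR1 KO 4 was the lowest array for 4 of them (Fbn1, Fbln2, Fbln5 and Mfap5) and among the lowest 2 for 8, and WT 2 was the lowest for 3 (Eln, Fbn2 and Efemp2). WT 3 was the highest array for 4. Without FGFR1 KO 4 the median difference over the 10 members was -0.39, and without WT 2 it was -0.67. Without WT 2, 5 members did not overlap between the groups, Fbn1 and Fbln2 being added, beside 4.15% of all genes tested that were lower without overlap. Leaving out FGFR1 KO 4 and WT 2 together, a choice made after seeing the data, also gave 5, beside 5.72%.

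The promoters of 2 of the non-overlapping genes, Efemp1 and Fbln1, are shown with that of Efemp2, a close relative of Efemp1 that did not separate the groups. For 6 of the 10 members, the 250 bases before the first start that RefSeq lists on the GRCm38.p6 build were searched on both strands for a TATA box, a GC box, an AP-1 site and a SMAD palindrome. Capitals mark matches.
Efemp1, chr11:28852955-28853204, plus strand: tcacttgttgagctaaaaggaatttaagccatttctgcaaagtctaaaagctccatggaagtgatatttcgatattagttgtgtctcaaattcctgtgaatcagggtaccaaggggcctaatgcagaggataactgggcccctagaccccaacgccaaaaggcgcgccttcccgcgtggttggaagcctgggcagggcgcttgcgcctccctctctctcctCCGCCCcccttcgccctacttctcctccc
Fbln1, chr15:85205699-85205948, plus strand: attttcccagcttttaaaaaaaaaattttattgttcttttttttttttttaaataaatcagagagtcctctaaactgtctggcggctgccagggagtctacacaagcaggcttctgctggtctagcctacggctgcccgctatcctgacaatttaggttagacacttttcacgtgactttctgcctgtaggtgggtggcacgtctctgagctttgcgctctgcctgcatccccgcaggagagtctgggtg
Efemp2, chr19:5473696-5473945, plus strand: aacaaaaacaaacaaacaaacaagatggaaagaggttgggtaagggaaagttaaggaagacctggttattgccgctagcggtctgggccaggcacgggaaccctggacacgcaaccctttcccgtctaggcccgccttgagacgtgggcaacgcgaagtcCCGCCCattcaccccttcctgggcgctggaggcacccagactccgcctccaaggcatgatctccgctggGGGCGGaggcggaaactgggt
The GC box, searched as GGGCGG, was the 1 motif found. It was present in 5 of the 6 members' windows, all but that of Fbln1, and in 32.74% of the 32851 windows of the table. Efemp1 held it once and Efemp2 at 2 places. The TATA box, searched as TATAAA, was found in 0 of the 6 members' windows and in 12.37% of all windows. The AP-1 site, searched as TGACTCA, was found in 0 of the 6 and in 4.46% of all. The SMAD palindrome, searched as GTCTAGAC, was found in 0 of the 6 and in 0.17% of all. Eln, Fbn2, Mfap4 and Mfap5 were left out of this search. The counts for the 6 members thus describe a part of the list only. A match describes the letters only.

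Of the other genes that build or remodel elastic fibres, a list of 28, 26 were tested. Differences were below 0 for 17 and above 0 for 9, with a median of -0.20, against 50.4% of all genes tested below 0. None passed limma's test over all probes (smallest adjusted p = 0.363). At an unadjusted p under 0.05, limma counted 4 as lower and 0 as higher, against 4.78% and 3.1% of all genes tested. Of the 26, 4 were lower on every FGFR1 KO array than on any WT array, against 2.5% of all genes tested. Those 4 were Loxl1, Emilin2, Ltbp4 and Mfap2. Loxl1, the lysyl oxidase that mice need to maintain elastic fibres, read -0.97, -1.26, -0.52 and -0.98 on FGFR1 KO 1 to 4, against 0.88, -0.14, 0.39 and -0.39 on WT 1 to 4. Its difference was -1.12 ± 0.29 (SE; limma, adjusted p = 0.363), and its second probe differed by -1.28 ± 0.41 (SE) with overlapping groups. Neither Loxl1 spot lies in the rectangle. Emilin2, a glycoprotein gene of the elastin interface family, differed by -0.99 ± 0.27 (SE), also outside the rectangle. Ltbp4, which encodes a latent TGF-beta binding protein that works with fibulins in elastic fibre assembly in mice, differed by -1.15 ± 0.34 (SE) inside it, and its second probe overlapped between the groups (-1.25 ± 0.64). Mfap2, which encodes the partner glycoprotein of Mfap5 on microfibrils, differed by -0.32 ± 0.15 (SE), and its second probe by -0.63 ± 0.32 (SE) with overlapping groups. Lox, the main lysyl oxidase, differed by -0.96 ± 0.38 (SE) with overlapping groups. Thsd4, a gene of the ADAMTS-like family that promotes microfibril assembly, had the smallest p among genes with a difference above 0, at 0.505 ± 0.23 (SE), with overlapping groups and a signal well above background on 1 of 4 WT arrays. Loxl4 and Hmcn1 were not tested, because too few of their spots were well above background.

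Fibroblast markers had lower ratios in the same tumours. Of 10 such genes (Col1a1, Col1a2, Col3a1, Dcn, Lum, Dpt, Pdgfra, Pdgfrb, Thy1 and Fap), 10 had a difference below 0 and 6 were lower without overlap, against 50.4% and 2.5% of all genes tested, with a median difference of -1.67. None of them passed limma's test, which called 0 of the 16781 representing probes. Their median log2 ratio per array was -2.02 to -0.68 in FGFR1 KO and -0.55 to 0.19 in WT tumours, while the median of the 10 elastic fibre genes was -1.03 to -0.13 and -0.17 to 0.28, with an overlap of FGFR1 KO 2 and WT 2. In a tumour piece, fewer fibroblasts and less RNA per fibroblast cannot be told apart. When the fibroblast marker median of each array was subtracted, Mfap5 differed by -0.14, Fbln5 by 0.08 and Fbn1 by 0.18, Fbln1 by 0.49, Fbln2 by 0.60, Eln by 1.04 and Efemp1 by -1.03, with overlapping groups for each. Fbn2, Mfap4 and Efemp2 differed by 1.18, 1.13 and 1.19, each higher in FGFR1 KO tumours without overlap, a count not made for other genes. The subtracted medians themselves do not overlap between the groups. A probe that barely varies, as for Fbn2 and Mfap4, must therefore come out higher in FGFR1 KO tumours. Efemp2 varied widely but differed by 0.06 before the subtraction, so its mean difference comes almost wholly from the subtracted medians. These values are no result about the genes. Efemp1 then read -3.58, -1.42, -2.28 and -2.38 on FGFR1 KO 1 to 4, against -1.09, -1.06, -2.74 and -0.65 on WT 1 to 4. The part of fibroblast content in the members' differences was not tested beyond these values.

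Markers of other cells ran in both directions, and none passed limma's test. The 8 smooth muscle and pericyte markers, of the other cell type known for making elastic fibres, had a median difference of 0.16 and overlapped, at -0.49 to 1.68 per array in FGFR1 KO and -0.16 to 0.81 in WT tumours. Adipocyte markers (8 of 8 below 0, 2 lower without overlap, median difference -1.66) also had array medians that did not overlap. They were -0.04 to 0.34 in FGFR1 KO and 0.41 to 3.79 in WT tumours. Skeletal muscle markers (7 of 8 below 0, 0 without overlap, median difference -2.61) were at -0.24 to 0.69 and -0.03 to 8.51. WT 1 and WT 2 were the highest arrays for both. Of all genes tested, 2.5% were lower and 1.85% higher without overlap. Without these 2 arrays the members' median difference was -0.76, Efemp1 differed by -1.94 and 6 members did not overlap, beside 6.91% of all genes tested. Luminal epithelial markers had 0 of 8 differences below 0 and a median difference of 1.5. Their array medians were 2.05 to 2.84 in FGFR1 KO tumours and 1.60, -0.73, 2.27 and 2.92 on WT 1 to 4. Only WT 2 was below 0, and there these markers do not bear out the mammary label. Endothelial markers (7 of 8 below 0, 1 lower without overlap, median difference -0.22) were at 0.30 to 0.61 in FGFR1 KO and 0.42 to 1.06 in WT tumours. Macrophage markers (5 of 5 below 0, 1 lower without overlap, median difference -0.82) were at -0.09 to 0.24 and -0.03 to 1.03. Basal epithelial markers (3 of 5 below 0, median difference -0.18) were at 0.32 to 1.14 and -0.05 to 1.86. Milk genes (0 of 5 below 0, median difference 1.09) were at 1.93 to 8.44 and 0.23 to 6.66. Of the milk genes, 1 was higher without overlap, Wap, which had no value on FGFR1 KO 1. Of 6 cartilage and tendon markers, 2 were tested, and Matn1 was not well above background on any array.

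**Figure D4:**
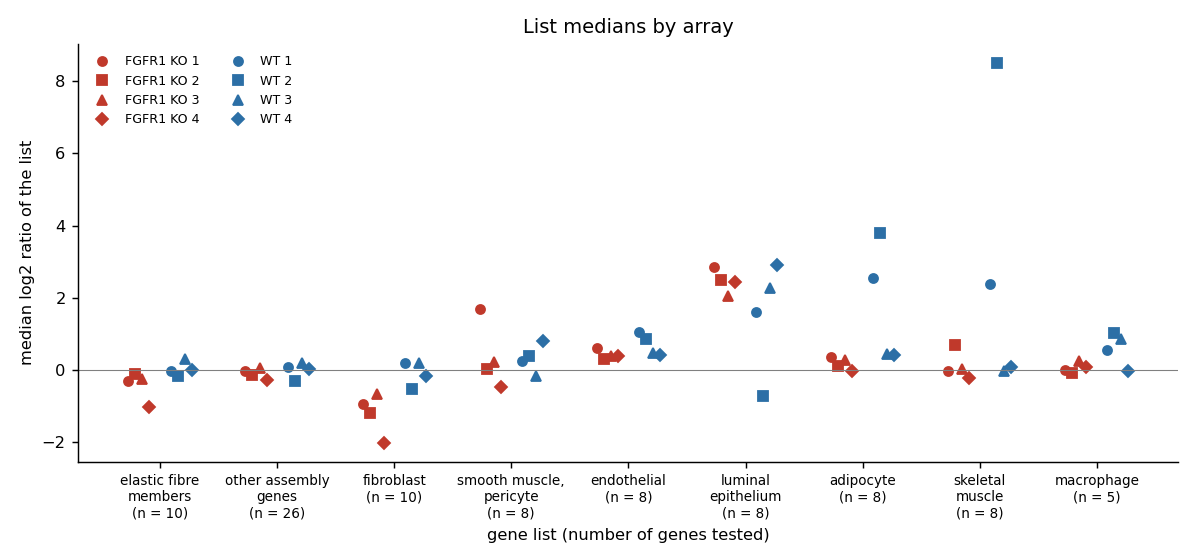
Median log2 ratio of each gene list per array (vertical axis), with the lists and their number of tested genes on the horizontal axis and FGFR1 KO in red left of WT in blue. The fibroblast medians of the 4 FGFR1 KO arrays (-2.02 to -0.68) lie below those of the 4 WT arrays (-0.55 to 0.19), and WT 2 stands at 8.51 for skeletal muscle.

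Within the member list, the profile shared by the genes over the 8 arrays (the mean of each gene's centred and scaled values) was followed most closely by Fbn1, whose correlation with the mean of the other 9 members was 0.929. It was 0.814 for Fbln2, 0.79 for Mfap5 and 0.765 for Fbln5, and 0.436 for Efemp1 and 0.312 for both Fbn2 and Mfap4. Scaling gives each member the same weight in this profile. Fbn2 and Mfap4, with ranges of 0.22 and 0.30, thus count as much as Efemp1, with a range of 3.73. Among 16488 other genes with a value on every array, the 5 most like this profile were Gramd2 (Pearson r = 0.972 over 8 arrays), Fstl1 (0.96), Stmn4 (0.956), Col5a1 (0.955) and Pou5f2 (0.947). Without WT 2 these correlations were 0.968, 0.963, 0.953, 0.978 and 0.94. Fstl1 encodes a secreted glycoprotein of mesenchymal cells and Col5a1 a collagen chain that starts fibrils. The points share their arrays, genotypes and normalization, and the highest of so many correlations over 8 points is high by selection.

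**Figure D5:**
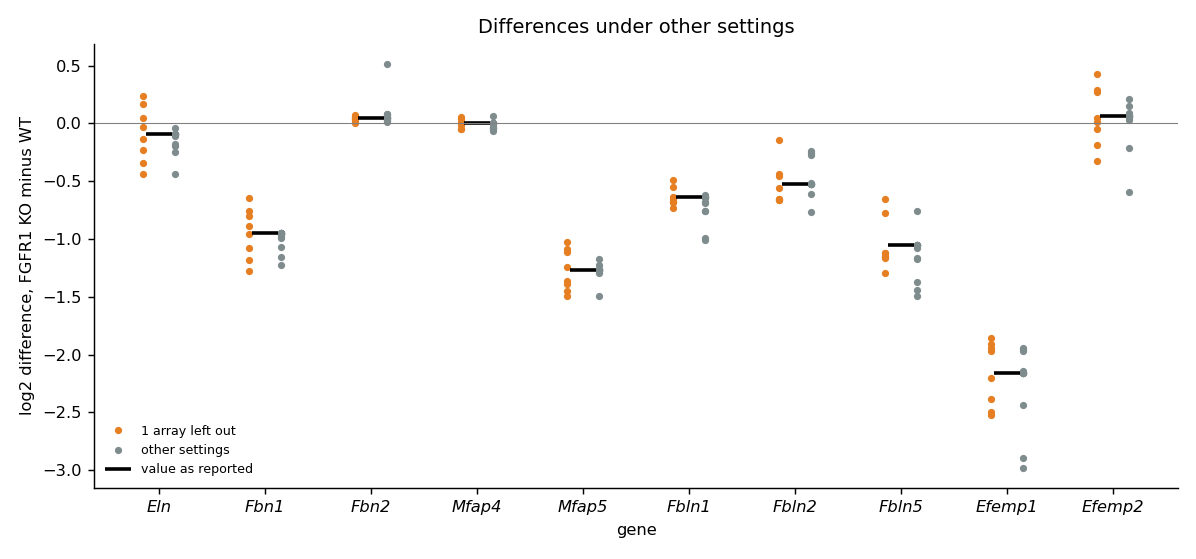
Log2 difference, FGFR1 KO minus WT, of each member (vertical axis) as reported (black bar), with 1 array left out (orange points) and under the other settings (grey points). Efemp1 stayed between -2.98 and -1.86, and Eln, Efemp2 and Mfap4 lie on both sides of 0.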

How the data were processed

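RNA of 8 tumours (4 FGFR1 KO, 4 WT, grouped by sample title) was measured on 1 2-colour Agilent array each. Per the file headers, Agilent Feature Extraction 11.0.1.1 made the deposited files. The deposited median signal and background columns are intensities on a linear scale with no correction, and the processed signals are intensities after background subtraction, detrending and dye normalization. The deposited ratio column is log10 of the red processed signal divided by the green one. The series matrix, also deposited, was taken to hold log2 red over green, since it correlated at 0.993 to 0.997 with the values computed here, with column medians from -0.0152 to 0.0155; its normalization and centring are not given in the sources used here.

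With limma 3.58.1 (R 4.3.3), normexp with an offset of 50 was applied to the median signals, arrays were normalized by loess with control and outlier spots at weight 0, and spots of the same probe were averaged. A probe was tested if its red signal was well above background on 4 or more of 8 arrays and each group had at least 3 values (39818). Names came from RefSeq accessions in a GRCm38.p6 gene table, which named 28331 probes. The probe with the highest mean red signal represented a gene. FGFR1 KO was compared with WT by lmFit and eBayes, two-sided, with p-values adjusted over all probes (Benjamini-Hochberg) and a threshold of 0.05; the steps were tested on simulated data. Single values were compared by exact permutation. The members and lists were chosen with earlier results of these data known. Named genes were all members and their probes, the 6 assembly genes with the smallest p, the 5 genes most like the members' profile, and Fgfr1; further genes were named after their values were seen. Alternatives were other background and dye normalizations, filters, weights, the replicate number as a block, the deposited matrix, and arrays left out.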

Additional observations from a re-analysis of the deposited data

Results flagged for a closer look

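Of 24 sets of 4 arrays (12 tested probes in each group), 2 held an array whose gap to its nearest neighbour took up more of the group's range than Dixon's 95% critical value allows. Chance flags about 1 group in 20. Fbln2 on FGFR1 KO 4 read -2.60, while the other FGFR1 KO arrays read -1.07 to -1.05. Fbln5 (A_55_P2088615) on WT 3 read 0.98, while the other WT arrays read -0.20 to -0.07.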

How the results depend on the processing

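Under 21 alternatives, 0 members and 0 assembly genes were called, the members' median difference ran from -0.76 to -0.39 and that of the assembly genes from -0.23 to -0.08. Differences of Efemp1, Mfap5, Fbln1, Fbln5, Fbn1 and Fbln2 stayed below 0 in each setting that measured them, and Fbn2 above 0. The cause of the changes named next was not tested. Mfap4 turned to 0.062 with median centring and 3.568e-05 with the series matrix, and ran from -0.048 to 0.055 with 1 array left out. Efemp2 turned to -0.21 with array weights and -0.59 without WT 1 and WT 2, and ran from -0.33 to 0.43 with 1 array left out; Eln ran from -0.43 to 0.24. The non-overlapping members, 3 as reported, were 1 with the rectangle left out (6 genes measured), 3 to 5 with 1 array left out, 6 without WT 1 and WT 2, and 5 without FGFR1 KO 4 and WT 2 (added after seeing the data). With Agilent's log ratio, red signal alone or median centring they were Efemp1, Fbln1 and Fbln5, and with the series matrix 4, these and Mfap5. Probes called, 4 as reported, were 139 with no filter, 11 with array weights and 6 with the series matrix. They were 0 with Agilent's log ratio, red signal alone, median centring, probes above background on all 8 arrays, the rectangle left out, the mean over probes, trend and robust eBayes, the replicate block, and without WT 1 and WT 2 or FGFR1 KO 4 and WT 2, and 0 to 1 with 1 array left out. Deviations of same-numbered arrays correlated at -0.04, 0.01, 0.11 and -0.11, so no pairing by number was seen in these values. Of the FGFR1 KO arrays, 2 of 4 correlated best with their own number. Such correlations cannot show whether the tumours were paired by design. With the replicate block, Efemp1 differed by -2.16 (limma, adjusted p = 0.537). All 12 tested probes were well above background on all arrays, but Efemp1 was dim on FGFR1 KO arrays, and its difference was -2.89 with Agilent's log ratio and -2.98 with red signal alone.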
